A study of Arabidopsis thaliana with 12 samples.

Results

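The experiment described here set leaves of the Arabidopsis knock-out line *glct2* against leaves of wild types after growth in continuous light. It comprised the 4 *glct2* libraries and the 4 wild-type libraries out of 12 libraries in all. The other 4 came from the *pGlcT2* overexpressor line #5. By the results section of the paper, it was made in the *glct2* line with the *pGlcT2* cDNA behind the 35S promoter. All genes with at least 1 FPKM (reads scaled to gene length and library size) in at least 4 of the 8 libraries were described, which were 17944 of the 32954 genes in the table. Both genotypes were of the ecotype Col-0, were given no further allele by the labels, and had spent 24 days in short days before 10 to 12 days in continuous light of 100 to 120 µmol quanta per square metre and second. The *glct2* line is SALK_052078, a single T-DNA insertion line, so a second change elsewhere in its genome cannot be told apart from the insertion by these data.

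Chloroplasts keep part of the carbon fixed in the light as starch and send the rest to the cytosol as triose phosphates and sugars, and pGlcT2 is a sugar carrier of the chloroplast envelope. Leaf cells also have to supply their chloroplasts with iron and copper, because the electron transport chain, chlorophyll synthesis and the enzymes that remove reactive oxygen depend on these metals. When iron is short, plants raise a small family of basic helix-loop-helix regulators and lower ferritins, the proteins that store iron.

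The paper places the insertion of *glct2* in the first intron of *pGlcT2* (*At1g05030*, minus strand of chromosome 1, 1438048 to 1441933 in TAIR10). This intron and the pair of primers with which the line was genotyped are shown for that reason. The position of the insertion itself was not determined here. The lengths of the genotyping products that the paper gives were not reconciled with the annotated intron. In the reference genome (TAIR10.1, whose positions equal those of the table for 17745 of 17747 tested genes found in both) the intron spans 90 bases, chr1:1441127-1441216, and the primers lie at chr1:1442006-1442026 on the minus strand and chr1:1441052-1441072 on the plus strand, enclosing the intron in 975 bases.
First intron of *pGlcT2*: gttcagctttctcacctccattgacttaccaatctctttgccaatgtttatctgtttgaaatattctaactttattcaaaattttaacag
Left primer: cactcaagcttccgtcgttag
Right primer: gaggaaaagccgataaccatc

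The level of *pGlcT2* mRNA was 2.65, 3.00, 3.89 and 2.83 FPKM in the *glct2* libraries, against 9.39, 10.1, 8.26 and 9.48 FPKM in the wild-type libraries. No *glct2* library reached the lowest wild type. In the limma fit this was a log2 fold change of -1.34, with a standard error of 0.11 (adjusted p = 2.23e-05). Reads thus remained on the gene in the knock-out, and whether they came from complete transcripts cannot be read from gene totals. By semi-quantitative RT-PCR, with full-length primers according to its supplement, the paper found *pGlcT2* mRNA almost completely absent from the line. The nearest annotated gene upstream with a call, *At1g05035* (chromosome 1, 1444983 to 1446116), had 0.143, 0.148, 0.133 and 0.733 FPKM in *glct2* and 1.07, 2.66, 1.82 and 2.33 FPKM in wild types (log2 fold change -1.195, adjusted p = 0.0460). It was looked at after its value was seen, and its call was lost in 10 of the 12 fits that left out a library, those without *glct2* replicate 1, 2, 3 or 4 or wild-type replicate 1, 2, 3 or 4 or the overexpressor's replicate 1 or 3 (adjusted p up to 0.138 over all alternatives). The call was also lost with no filter, a pseudocount of 5, the replicate block and rescaling without the 50 most abundant genes. These values rest on 9 reads in all *glct2* libraries together and 61 in all wild-type libraries.

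Reads recovered from the FPKM values summed to 18471068 to 22418179 per *glct2* library (median 19167624) and to 19035449 to 24276381 per wild-type library (median 22403985). One read in a gene of 1 kilobase was worth 0.0439 to 0.0553 FPKM. The 50 most abundant genes took 11.8 to 14.5% of the reads in *glct2* and 14.9 to 17.59% in wild types. In *glct2* replicate 4, 0.0820% of the reads fell on the plastid chromosome and 0.384% on ribosomal RNA genes, against at most 0.0311% and 0.173% in the other 7 libraries. Of the marker lists for other organs and cells, 1 of 8 flower genes, 8 of 10 genes of dividing cells, 7 of 8 of guard cells and trichomes, 2 of 7 of roots and 6 of 6 of phloem were expressed well enough to be tested, and none of these passed in limma (2 with an unadjusted p under 0.05, none called by voom). Summed markers ranged from 15.9 to 26.1 FPKM in *glct2* and from 13.8 to 20.014 FPKM in wild types for roots, from 31.7 to 41.4 FPKM in *glct2* and from 33.3 to 40.6 FPKM in wild types for dividing cells, from 23.6 to 30.2 FPKM in *glct2* and from 27.0 to 30.4 FPKM in wild types for guard cells and trichomes, and from 252 to 322 FPKM in *glct2* and from 233 to 298 FPKM in wild types for phloem. The photosystem and antenna genes summed to 40162 to 64563 FPKM in *glct2* and 66552 to 97874 FPKM in wild types.

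In *glct2*, 368 genes were called higher and 497 lower than in wild types (adjusted p under 0.05, limma on log2(FPKM + 1), Benjamini-Hochberg over all 17944 genes). These are 2.05% and 2.77% of the genes tested, and 4.82% together. The 4 *glct2* libraries lay all above or all below the 4 wild-type libraries for 17.1% of all genes tested (7.52% above, 9.59% below) and for 841 of the 865 called ones (4.69% of all). Most changes were small. A log2 fold change of at least 1 was reached by 72 of the genes called higher and by 53 of those called lower, the median being 0.47 and -0.39. The median over all genes tested was 0.00065. This balance rests on the scaling carried by the deposited values, which took the library size as 1.01 to 1.06 times the reads in *glct2* and 0.927 to 0.987 times in wild types. Rescaled to the recovered reads, all log2 fold changes moved by 0.10 in the median and the calls were 1291 higher and 244 lower. With limma voom on these reads the calls were 1230 higher and 254 lower, and after rescaling without the 50 most abundant genes 417 higher and 348 lower. Directions are therefore given relative to the typical gene. Leaving out 1 library gave between 220 calls (without wild-type replicate 4) and 1158 (without overexpressor replicate 4). Losses of single genes are those in fits without one library unless another setting is named.

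**Figure D1:**
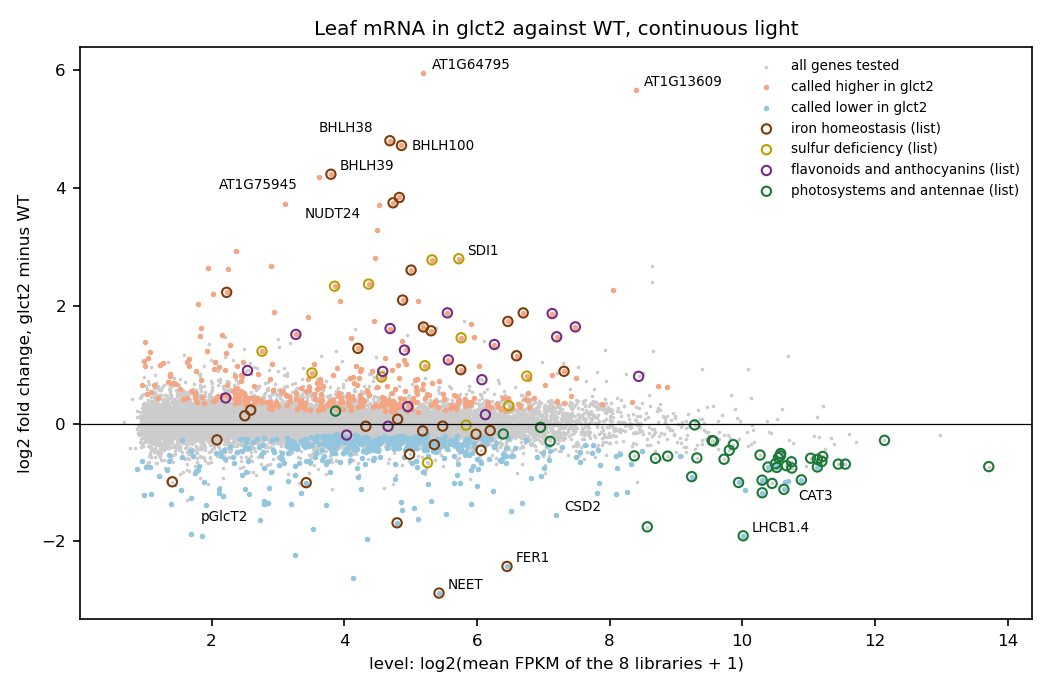
Each point is one of the 17944 genes tested, with its level (log2 of the mean FPKM of the 8 libraries + 1) on the horizontal axis and its log2 fold change, *glct2* minus wild types (WT), on the vertical axis; orange and blue points passed the test, and rings mark members of 4 lists. The iron regulators *BHLH38*, *BHLH100* and *BHLH39* stand between 4.23 and 4.80, *NEET* and *FER1* at -2.88 and -2.42, and the rings of the photosystem genes lie almost all below 0.

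Iron homeostasis was the list with the most calls. Of 38 list members 33 were tested, of which 16 were higher (48.5%), 4 were lower (12.1%) and 13 did not pass. The background, the share of all genes tested that was called, was 2.05% higher and 2.77% lower, here and for every list and group below. All 20 calls were kept in each of 24 alternative settings, including those without any one library. 

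The regulators of the subgroup Ib basic helix-loop-helix family, which switch on iron acquisition, were almost silent in wild types and well expressed in *glct2*. *BHLH38* had 39.5, 45.01, 62.3 and 48.4 FPKM in *glct2*, against 0.562, 1.01, 0.650 and 0.873 FPKM in wild types (log2 fold change 4.80, standard error 0.21, adjusted p = 8.53e-08). *BHLH100* had 48.8, 47.1, 76.7 and 47.5 FPKM in *glct2* and 0.430, 2.09, 1.596 and 0.644 FPKM in wild types (4.72, standard error 0.32, adjusted p = 8.49e-06). For *BHLH39* the values were 19.6, 22.9, 32.7 and 26.5 FPKM in *glct2* and 0.182, 0.397, 0.796 and 0.245 FPKM in wild types (4.23, adjusted p = 1.72e-05). In all of them the lowest *glct2* library was far above the highest wild type, and *glct2* replicate 3 was the highest library. The fourth member of the family, *BHLH101*, averaged 6.73 ± 1.87 FPKM in *glct2* and 0.636 ± 0.285 FPKM in wild types (SD, n = 4 each; 2.23, adjusted p = 2.23e-05) and was picked for naming after its value was seen.

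The 250 bases before the annotated starts of the 3 genes are printed because these genes rose together. They were read from TAIR10.1, all on the minus strand, 5′ to 3′, with the motif CACGTG (the G-box, a binding motif of this protein class that reads the same on both strands) in capitals. The stretches are chr3:21085246-21085495 for *BHLH38*, chr3:21087711-21087960 for *BHLH39* and chr2:17199455-17199704 for *BHLH100*.
*BHLH38*: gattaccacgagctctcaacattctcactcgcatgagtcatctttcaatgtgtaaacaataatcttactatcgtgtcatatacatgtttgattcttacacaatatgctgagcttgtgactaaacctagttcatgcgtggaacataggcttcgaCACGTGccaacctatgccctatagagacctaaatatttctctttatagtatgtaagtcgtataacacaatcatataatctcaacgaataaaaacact
*BHLH39*: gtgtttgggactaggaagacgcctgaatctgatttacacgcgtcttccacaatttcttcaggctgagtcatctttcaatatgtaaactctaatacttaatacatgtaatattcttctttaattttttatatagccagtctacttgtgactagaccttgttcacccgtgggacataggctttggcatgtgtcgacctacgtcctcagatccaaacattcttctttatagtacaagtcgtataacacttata
*BHLH100*: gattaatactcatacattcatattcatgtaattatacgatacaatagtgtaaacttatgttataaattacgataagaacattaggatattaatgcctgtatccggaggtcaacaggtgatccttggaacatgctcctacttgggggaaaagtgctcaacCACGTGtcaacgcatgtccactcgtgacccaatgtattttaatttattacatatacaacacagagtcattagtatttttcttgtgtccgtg
The motif begins 97 bases before the start of *BHLH38* and 91 bases before that of *BHLH100*, and it was not found in the stretch of *BHLH39*. It was present in 7.42% of the 17850 stretches of this length before tested nuclear genes. Among the iron genes it occurred before 4 of the 16 that were higher, 1 of the 4 that were lower and 3 of the 13 that did not pass.

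Regulators further up did not pass. *ILR3*, *BHLH104*, *BHLH115*, *BHLH34* and *BHLH121*, which act upstream of the Ib genes, had log2 fold changes of -0.12, 0.07, -0.04, 0.23 and -0.05. *FIT*, the partner of the Ib proteins in roots, was at 2.83 FPKM in *glct2* and 3.64 FPKM in wild types, and the root uptake genes *IRT1* and *FRO2* averaged 0.457 and 0.570 FPKM in *glct2* and 0.0159 and 0.653 FPKM in wild types, below the level required for a test. *BTS* and *PYE* were higher. *BTS*, a ubiquitin ligase that restrains the response to iron shortage, averaged 135 ± 6.93 FPKM in *glct2* and 40.3 ± 7.36 FPKM in wild types (SD, n = 4 each, log2 fold change 1.73, adjusted p = 5.46e-05). *PYE*, a repressor of the basic helix-loop-helix class, averaged 25.03 ± 1.97 FPKM in *glct2* and 9.88 ± 2.205 FPKM in wild types (1.28, adjusted p = 1.57e-04).

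Further calls of the list fell on genes for moving iron within the plant. *NAS4*, a nicotianamine synthase that makes the metal chelator of the phloem, averaged 46.6 ± 6.31 FPKM in *glct2* and 10.3 ± 2.26 FPKM in wild types (2.09, adjusted p = 0.00106). Log2 fold changes were 1.64 for *ZIF1*, a vacuolar carrier of nicotianamine, 1.57 for *FRO3*, a mitochondrial ferric reductase, 0.91 for *NRAMP4*, which releases iron from the vacuole, and 0.89 for *OPT3*, which loads iron into the phloem (adjusted p from 7.15e-05 to 0.00608). *ORG1* (1.88) and *CGLD27* (1.15) rose as well. *YSL1*, a carrier of the metal-nicotianamine complex, fell by 1.00 on the log2 scale, with 6.18 ± 0.910 FPKM in *glct2* and 13.3 ± 1.401 FPKM in wild types (adjusted p = 5.40e-04). Its relative *YSL3* had -0.36, *NAS1* -0.12, *NAS3* -0.99, *NRAMP3* 0.13 and the ferric reductase genes *FRO6* and *FRO7* -0.45 and -0.18, which did not pass. Of the genes in this paragraph and the last, all that passed were picked for naming after their values were seen.

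The ferritin genes *FER1* and *FER4* were lower. *FER1*, the main leaf ferritin, had 22.6, 24.0, 22.5 and 38.1 FPKM in *glct2*, against 159.6, 142, 112 and 173 FPKM in wild types (log2 fold change -2.42, standard error 0.22, adjusted p = 1.03e-04). *FER4*, a second ferritin, had 11.1, 12.0, 8.50 and 17.8 FPKM in *glct2* and 42.6, 29.8, 43.3 and 49.3 FPKM in wild types (-1.68, adjusted p = 0.00106). Both were lower in every *glct2* library, and *glct2* replicate 4 was the highest of its genotype. *FER3* had -0.52 (adjusted p = 0.0646) and did not pass, and *FER2*, the seed form, stayed below the filter.

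*NEET*, which encodes an iron-sulfur protein, had the most negative value of the genes called on the log2(FPKM + 1) scale. It had 9.56, 8.66, 2.92 and 21.6 FPKM in *glct2* and 73.5, 43.5, 78.9 and 98.0 FPKM in wild types (-2.88, standard error 0.50, adjusted p = 0.00980). The rubredoxin genes *ENH1* (31.5 to 58.7 FPKM in *glct2*, 107 to 149.8 FPKM in wild types, -1.47) and *At5g51010* (14.6 to 27.9 FPKM in *glct2*, 50.2 to 78.5 FPKM in wild types, -1.53) fell by similar amounts (adjusted p = 0.00147 and 0.00130). *ABCI8*, a subunit of the plastid machine that assembles iron-sulfur clusters, averaged 46.5 ± 5.44 FPKM in *glct2* and 103 ± 8.95 FPKM in wild types (-1.14, adjusted p = 3.21e-04). Vacuolar iron transporter homologs 1 (*At1g21140*) and 2 (*At1g76800*) averaged 0.817 and 2.60 FPKM in *glct2* and 2.97 and 6.80 FPKM in wild types (-1.13 and -1.12, adjusted p = 0.00130 and 0.00750). The last 3 genes were chosen after their values were seen.

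**Figure D2:**
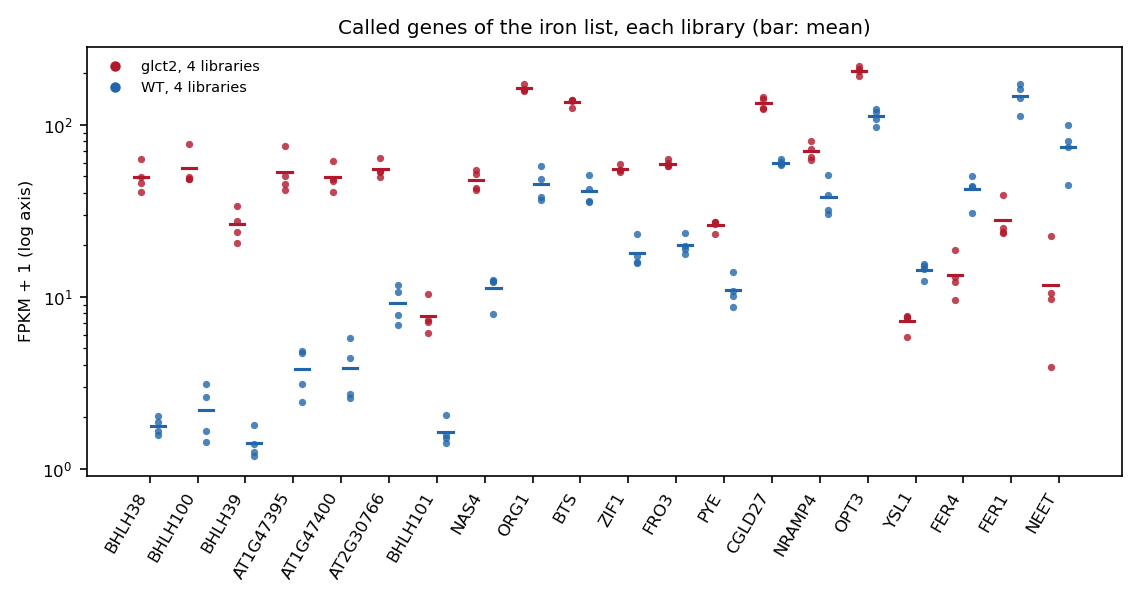
FPKM + 1 on a log axis for the 20 called genes of the iron list, with *glct2* libraries in red on the left and wild-type libraries (WT) in blue on the right of each gene; every point is one library and the bar is the mean of 4. No gene has overlapping groups, and the 16 genes higher in *glct2* stand to the left of *YSL1*, *FER4*, *FER1* and *NEET*.

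Several of the strongest rises were small genes that lie beside each other. *At1g47395* (chromosome 1, 17382998 to 17383830) and *At1g47400* (17385707 to 17386485), which belong to the iron list and resemble each other so that reads may have been split between them, had 40.7, 44.5, 74.0 and 49.4 FPKM and 39.8, 45.8, 60.6 and 47.6 FPKM in *glct2*. In wild types they had 2.12, 3.84, 3.70 and 1.43 FPKM and 1.56, 4.79, 3.39 and 1.72 FPKM. Their log2 fold changes were 3.83 and 3.74 (adjusted p = 2.15e-05 and 2.10e-05), and the long non-coding RNA *At1g07367*, which follows them at 17388989 to 17389500, had 4.52, 7.12, 13.0 and 8.26 FPKM in *glct2* and 0.109, 0.348, 0.174 and 0 FPKM in wild types (2.92, adjusted p = 2.23e-05). Another list member, *At2g30766* on chromosome 2, averaged 54.1 ± 6.20 FPKM in *glct2* and 8.25 ± 2.31 FPKM in wild types (2.60, adjusted p = 1.38e-05).

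A second run of neighbours on chromosome 1 encodes defensin-like proteins, small cysteine-rich peptides. *At1g13609* (defensin-like 287, 4662698 to 4663253) had 546, 639, 805 and 637 FPKM in *glct2*, against 4.19, 19.1, 21.2 and 10.9 FPKM in wild types. This was the largest rise of mean FPKM among the genes called (log2 fold change 5.66, standard error 0.41, adjusted p = 1.49e-05). Its neighbour *At1g13608* (defensin-like 288, 4661682 to 4662428) had 12.6, 14.5, 16.6 and 16.5 FPKM in *glct2* and 0.174, 0.0690, 0.277 and 0.313 FPKM in wild types (3.73, adjusted p = 7.54e-07). The next gene, *At1g13607* (defensin-like 286), held 208 reads over the 4 *glct2* libraries and 2 over the wild types, 107 times as many after scaling (95% exact counting interval 29.3 to 892), and was looked at after its value was seen. Of 253 genes described as defensin-like 13 were tested, and 4 of these were higher (30.8%, background 2.05%) and none lower.

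Other genes that were nearly silent or low in wild types belonged to none of the lists. *At1g64795* (chromosome 1, 24082579 to 24082848, protein coding, not described in the table) had 63.5, 63.5, 91.1 and 65.1 FPKM in *glct2* and 0, 0.437, 0.219 and 0 FPKM in wild types, which are 1159 and 3 reads, a ratio of 398 (95% exact counting interval 136 to 1935, adjusted p = 1.93e-10 in limma). *At1g75945* (chromosome 1, 28515245 to 28515916) had 22.7, 23.8, 23.1 and 19.7 FPKM in *glct2* and 0, 0.381, 0.191 and 0.647 FPKM in wild types (4.18, adjusted p = 6.98e-08). These genes differed from the iron genes in the overexpressor, whose mean was 0 FPKM for *At1g64795* and 0.401 FPKM for *At1g75945*. A transcript outside the annotated genes on chromosome 5 (14087960 to 14090049) had the same pattern, with 0.273 FPKM in the overexpressor, 11.7 ± 1.18 FPKM in *glct2* and 1.25 ± 1.38 FPKM in wild types (SD, n = 4 each; 2.67 for *glct2* minus wild types, adjusted p = 5.26e-04), and was picked after its value was seen. *NUDT24*, a nudix hydrolase, had 44.6, 38.6, 35.8 and 47.3 FPKM in *glct2* and 2.51, 5.46, 1.999 and 0.622 FPKM in wild types (3.71, adjusted p = 1.16e-04), and *At2g14247* had 33.7 to 45.2 FPKM in *glct2* and 1.31 to 5.83 FPKM in wild types (3.28).

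Sulfur-deficiency genes rose together. Of 15 members 13 were tested, and 10 were higher (76.9%, background 2.05%) and none lower, with a median log2 fold change of 0.98. Plants raise these genes when sulfate is short. *SDI1*, which damps glucosinolate synthesis, had 114, 79.5, 89.6 and 71.4 FPKM in *glct2* and 12.2, 35.5, 8.48 and 4.75 FPKM in wild types (log2 fold change 2.80, standard error 0.47, adjusted p = 0.00826). *LSU1* averaged 67.8 ± 8.90 FPKM in *glct2* and 10.2 ± 6.73 FPKM in wild types (2.78, adjusted p = 5.88e-04), and *LSU3* averaged 32.9 ± 3.63 FPKM in *glct2* and 6.35 ± 4.37 FPKM in wild types (2.37, adjusted p = 0.00219). In each of these genes the highest wild-type library was replicate 2, and it stayed below the lowest *glct2* library. *SULTR4;2*, which releases sulfate from the vacuole, had 13.6 ± 0.605 FPKM in *glct2* and 7.20 ± 1.83 FPKM in wild types (0.86, adjusted p = 0.00256).

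Further members were picked for naming after their values were seen. *SULTR1;2*, the main sulfate uptake carrier, had a log2 fold change of 1.23 (adjusted p = 0.00880), *GGCT2;1*, which breaks down glutathione, 2.33 (adjusted p = 0.0206), and *LSU2* 1.455 (adjusted p = 0.00697). Of the adenosine phosphosulfate reductases, *APR3* rose (0.81, adjusted p = 0.0330), while *APR1* (0.30) and *APR2* (-0.03) did not pass. Of the 10 calls, 8 were kept in all 24 alternatives. *APR3* did not pass without *glct2* replicate 1, 2 or 3 or wild-type replicate 1, 3 or 4 (adjusted p up to 0.107), nor *GGCT2;1* without *glct2* replicate 1 or 3 or wild-type replicate 4 (adjusted p up to 0.0668). Without wild-type replicate 2, 11 members were higher and 1 lower.

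The aliphatic glucosinolate genes, which make sulfur-rich defence compounds, leaned the other way. Of 24 tested members 3 were lower and none higher, 23 had negative values and the median was -0.38. The cytochrome P450 genes *CYP79F1* (47.0 ± 10.0 FPKM in *glct2*, 80.6 ± 14.6 FPKM in wild types, -0.78) and *CYP83A1* (177 ± 26.5 FPKM in *glct2*, 249 ± 22.3 FPKM in wild types, -0.50) and the isomerase subunit gene *IPMI-LSU1* (-0.46) passed narrowly (adjusted p = 0.0346, 0.0378 and 0.0352). *CYP79F1* no longer passed without *glct2* replicate 1, 2 or 3 or wild-type replicate 1, 2 or 4, *CYP83A1* without *glct2* replicate 1, 2 or 3 or wild-type replicate 1, 2, 3 or 4 or the overexpressor's replicate 1 or 3 and *IPMI-LSU1* without *glct2* replicate 1, 2 or 3 or wild-type replicate 1, 3 or 4 or the overexpressor's replicate 1 or 3 (adjusted p up to 0.106, 0.122 and 0.111). *CYP83A1* was also lost with no filter. *TGG1* and *TGG2*, the leaf myrosinases that split glucosinolates and lie next to each other on chromosome 5, had 776 to 1454 and 606 to 1114 FPKM in *glct2*, against 1837 to 2416 and 1576 to 1723 FPKM in wild types (-0.996 and -0.98, adjusted p = 0.0268 and 0.0261). They were chosen after their values were seen. *TGG1* was lost without *glct2* replicate 1 or 3 or wild-type replicate 1, 3 or 4 and *TGG2* without *glct2* replicate 1 or 3 or wild-type replicate 1 or 4, and both under quantile normalization and with no filter (adjusted p up to 0.0923 and 0.0862). None of 11 indole glucosinolate genes passed in limma (5 with an unadjusted p under 0.05, 1 called by voom). *MYB34*, a regulator of that branch, came nearest, with 0.39 (adjusted p = 0.0535).

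Several anthocyanin genes were higher in *glct2*. Of 22 members of the flavonoid list 18 were tested, and 8 were higher (44.4%, background 2.05%) and none lower, with a median of 0.99. Most calls lay in the late steps that lead to the pigment. *DFR*, dihydroflavonol reductase, had 280.1, 198, 348 and 226 FPKM in *glct2* and 102, 166, 61.2 and 43.0 FPKM in wild types (log2 fold change 1.64, adjusted p = 0.0229). *TT19*, a glutathione transferase that carries anthocyanin to the vacuole, had 225, 174, 272 and 184 FPKM in *glct2* and 68.6, 121, 38.7 and 32.7 FPKM in wild types (1.87, standard error 0.32, adjusted p = 0.00951). Wild-type replicate 2 was the highest of its group in both genes and stood nearer to the lowest *glct2* library than to wild-type replicate 4.

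*5MAT*, a malonyl transferase that decorates anthocyanin, averaged 37.2 ± 6.32 FPKM in *glct2* and 12.4 ± 6.49 FPKM in wild types (1.61, adjusted p = 0.00597), and the regulator *TT8* 13.1 ± 2.61 FPKM in *glct2* and 4.22 ± 2.35 FPKM in wild types (1.51, adjusted p = 0.00767). Chosen after their values were seen, the glycosyl transferase genes *UGT79B1* and *UGT75C1*, anthocyanidin synthase *LDOX* and *CHIL* had log2 fold changes of 1.88, 1.34, 1.47 and 1.08 (adjusted p from 0.00956 to 0.0318). Chalcone synthase *CHS*, the first step of the pathway (0.80), the regulators *PAP1* (0.89) and *PAP2* (0.90) and flavonol synthase *FLS1* (-0.05) did not pass. Of the 8 calls 4 were kept in all 24 alternatives. *DFR* did not pass without *glct2* replicate 1 or 3 or wild-type replicate 3 or 4, *LDOX* without *glct2* replicate 1, 3 or 4 or wild-type replicate 1, 3 or 4, *UGT75C1* without *glct2* replicate 1 or 3 or wild-type replicate 1, 3 or 4 and *CHIL* without *glct2* replicate 3 or wild-type replicate 4 (adjusted p up to 0.0709, 0.0979, 0.0817 and 0.0676). *LDOX* and *UGT75C1* were also lost with the replicate block. The calls were 12 when wild-type replicate 2 was left out, 5 without *glct2* replicate 1 or wild-type replicate 3, and 4 without *glct2* replicate 3 or wild-type replicate 4.

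**Figure D3:**
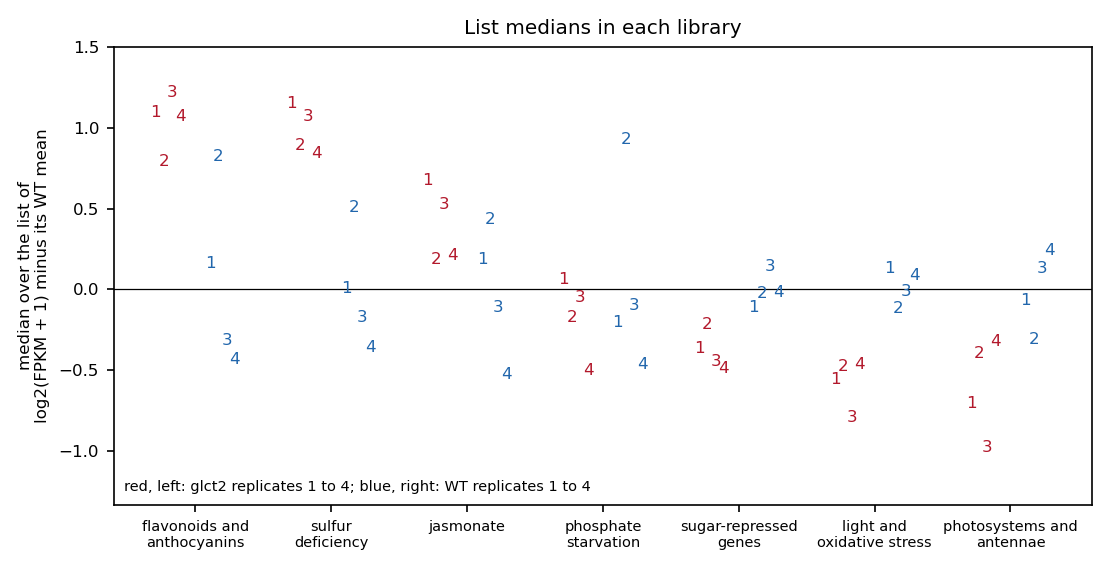
For 7 lists, the median over the members of log2(FPKM + 1) minus the wild-type mean is given in each library; red digits on the left are *glct2* replicates and blue digits on the right wild-type replicates (WT). In the flavonoid and anthocyanin list the *glct2* libraries lie at 0.79 to 1.22 and wild-type replicate 2 at 0.82, and in the sulfur, sugar-repressed and oxidative stress lists the genotypes do not overlap.

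Jasmonate genes had a median of 0.44, with 19 of 22 values positive, but none passed in limma (7 with an unadjusted p under 0.05, 1 called by voom). *VSP2*, a storage protein induced by the hormone, had 891, 504, 519.9 and 604 FPKM in *glct2* and 155, 440.2, 56.6 and 20.5 FPKM in wild types (2.68, adjusted p = 0.0512). Here wild-type replicate 2 came close to *glct2* replicate 2, and wild-type replicate 4 lay far below both. *THI2.1*, a thionin, had 41.4, 22.1, 57.2 and 28.0 FPKM in *glct2* and 7.47, 7.34, 2.56 and 1.705 FPKM in wild types and did pass (2.81, adjusted p = 0.0114), and so did the MATH domain gene *At3g28220* (313 to 558 FPKM in *glct2*, 27.0 to 199.8 FPKM in wild types, 2.27, adjusted p = 0.0199), which no longer passed without *glct2* replicate 1 or 3 (adjusted p up to 0.0612).

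Superoxide dismutases, which turn superoxide into hydrogen peroxide, were lower where they use copper in the cytosol and chloroplast. *CSD2*, the copper/zinc enzyme of the chloroplast, had 66.5, 71.5, 63.2 and 90.4 FPKM in *glct2* and 189, 161, 264 and 258 FPKM in wild types (log2 fold change -1.55, standard error 0.18, adjusted p = 5.50e-04). *CSD1*, its cytosolic form, had 132, 121, 132 and 161 FPKM in *glct2* and 325, 281, 337 and 297 FPKM in wild types (-1.18, adjusted p = 0.00405). *CCS*, the chaperone that gives both their copper, had 24.0, 24.8, 21.7 and 27.3 FPKM in *glct2* and 48.0, 43.1, 57.1 and 54.4 FPKM in wild types (-1.02, standard error 0.10, adjusted p = 1.43e-04). In none of the 3 did the genotypes overlap.

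The iron enzyme *FSD1*, which is usually high when the copper enzymes are low, fell as well, with 165 ± 35.7 FPKM in *glct2* and 382 ± 104 FPKM in wild types (-1.19, adjusted p = 0.00951), and the copper carrier gene *COPT2* rose (0.94, adjusted p = 0.0174). Both were named after their values were seen. *FSD2* (0.31), *FSD3* (0.29), the mitochondrial *MSD1* (-0.14), the peroxisomal *CSD3* (0.04) and *SPL7*, the regulator of copper responses (-0.02), did not pass. Of the 11 tested members of this list 4 were lower (36.4%) and 1 higher, and all 5 calls were kept in each of the 24 alternatives. The precursor of miR398c, a microRNA that acts on *CSD1*, *CSD2* and *CCS* transcripts, had 25.7, 25.6, 22.2 and 29.3 FPKM in *glct2* and 15.4, 22.9, 11.1 and 9.07 FPKM in wild types. It was looked at after these results, its groups overlapped and it did not pass (0.85, adjusted p = 0.0785).

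Several enzymes that remove hydrogen peroxide were lower too. Of 11 tested genes for light and oxidative stress, 4 were lower (36.4%) and none higher. *CAT3*, a catalase and one of the most abundant leaf transcripts, had 1245, 1093, 976 and 1138 FPKM in *glct2* and 2388, 2348, 1898 and 2126 FPKM in wild types (-0.98, standard error 0.13, adjusted p = 0.00166). *SAPX*, the ascorbate peroxidase of the stroma and of mitochondria, had 15.8, 16.8, 13.0 and 22.1 FPKM in *glct2* and 51.3, 34.3, 49.1 and 54.8 FPKM in wild types (-1.43, adjusted p = 6.70e-04). *APX1*, the cytosolic ascorbate peroxidase, had 198 to 214 FPKM in *glct2* and 311 to 378 FPKM in wild types (-0.76, adjusted p = 0.00916). The markers of acute stress *ZAT10*, *ZAT12*, *BAP1* and *ELIP1* had values between -0.18 and 0.16 and did not pass. *CAT2* (-0.56, adjusted p = 0.0676) did not pass either, and the call of *CAT3* was lost under quantile normalization (adjusted p = 0.129).

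**Figure D4:**
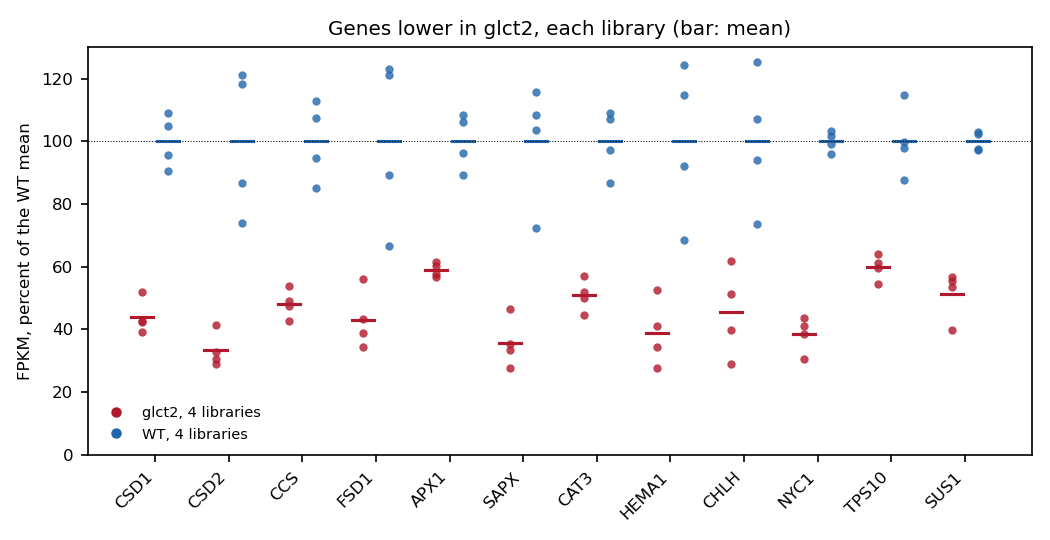
FPKM as a percentage of the wild-type mean for 12 genes with lower levels in *glct2*, with *glct2* libraries in red on the left and wild-type libraries (WT) in blue on the right; every point is one library and the bar is the mean of 4. In none of the genes does a *glct2* library reach the lowest wild type, and *CSD2*, *SAPX*, *HEMA1* and *NYC1* lie lowest.

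Of 20 tested genes of chlorophyll synthesis and greening, 4 were lower and 1 higher. *HEMA1*, which makes the first committed precursor, had 50.3, 59.9, 40.2 and 76.9 FPKM in *glct2* and 135, 100.1, 168 and 182 FPKM in wild types (-1.35, standard error 0.21, adjusted p = 0.00497). *CHLH*, a subunit of magnesium chelatase, had 167, 216, 122 and 259 FPKM in *glct2* and 395, 310.2, 450.4 and 527 FPKM in wild types (-1.16, adjusted p = 0.0174). *CGA1*, a GATA factor of greening, was higher, with 3.44 ± 0.495 FPKM in *glct2* and 1.39 ± 0.324 FPKM in wild types (0.89, adjusted p = 0.0278). The other chelatase subunits *CHLI1* (-0.08) and *CHLD* (-0.39) and the regulators *GLK1* (-0.14) and *GLK2* (-0.03) did not pass. *CHLH* did not pass without *glct2* replicate 1 or wild-type replicate 4 (adjusted p up to 0.0631) and *CGA1* not without *glct2* replicate 1, 2 or 3 or wild-type replicate 1, 2 or 4 (adjusted p up to 0.0804). The other lower members, *CAO* (-0.55) and *CHLP* (-0.56), were lost in 6 and 8 of the 12 fits without one library and in 1 and 6 of the 12 other settings (adjusted p up to 0.102 and 0.147). Of the list, 1 gene was lower and none higher without *glct2* replicate 1 or wild-type replicate 4. Without *glct2* replicate 2 or 3 or wild-type replicate 1, 2 were lower and none higher, and without wild-type replicate 3, 2 were lower and 1 higher. *HEMA1* was kept in all 24 alternatives. *NYC1*, which begins the breakdown of chlorophyll b, averaged 32.7 ± 4.78 FPKM in *glct2* and 85.0 ± 2.80 FPKM in wild types (-1.36, adjusted p = 5.12e-04).

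Photosystem and antenna genes had a median of -0.61 and 41 of 42 negative values, and 11 of them were lower (26.2%, background 2.77%). Under quantile normalization the median was -0.31 and 2 were lower, and 2 were lower with the replicate block and 1 with no filter. Their level varied within the genotypes. Relative to the wild-type mean, the list median was -0.71, -0.40, -0.98 and -0.32 in the *glct2* libraries and -0.07, -0.31, 0.13 and 0.24 in the wild types, so that *glct2* replicate 4 and wild-type replicate 2 were nearly level. The count of members called was 0 without *glct2* replicate 1 or 3 or wild-type replicate 1, 3 or 4, 2 without *glct2* replicate 2 or overexpressor replicate 3, 4 without overexpressor replicate 1, and at most 14 in the other fits without one library. Among the genes called, the largest falls of mean FPKM were those of *LHCB1.4*, *LHCB3*, *LHCA2*, *PSAF* and *CAT3*. *LHCB3*, *LHCA2* and *PSAF* were lost in 8, 8 and 5 of the 12 fits without one library. *LHCB3* and *LHCA2* were also lost in 5 and 4 of the 12 other settings. Over all alternatives the adjusted p of the 3 genes went up to 0.181, 0.151 and 0.0882. *LHCB1.4*, one of several near-identical antenna genes between which reads may be split, had 289.8, 546, 223 and 772 FPKM in *glct2* and 1220.5, 989, 2004 and 2222 FPKM in wild types (-1.90, adjusted p = 0.0404, lost without *glct2* replicate 1, 2 or 3 or wild-type replicate 1, 3 or 4 or the overexpressor's replicate 3, adjusted p up to 0.125). It was also lost with voom, with no filter and under quantile normalization. *FD2*, the main leaf ferredoxin and an iron-sulfur protein, had 667, 751, 416 and 809 FPKM in *glct2* and 1447, 941, 1632 and 1769 FPKM in wild types (-1.13, adjusted p = 0.0219) and was the only 1 of 13 electron transport and ATP synthase genes to pass, although not without *glct2* replicate 1 or wild-type replicate 1 or 4 (adjusted p up to 0.0764). In the Calvin cycle *RPE*, ribulose phosphate epimerase, alone passed of 23 (-0.69, adjusted p = 0.0174, and 0.0636 without wild-type replicate 4), and none of 11 photorespiration genes did in limma or with voom (0 with an unadjusted p under 0.05).

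Some of the genes that sugars repress were lower. Of 18 tested, 5 were lower (27.8%, background 2.77%) and none higher, with a median of -0.40. *SEN1* had 2.56, 2.89, 3.71 and 2.67 FPKM in *glct2* and 6.69, 9.00, 11.4 and 8.70 FPKM in wild types (-1.32, standard error 0.16, adjusted p = 0.00103). *DIN2*, a beta-glucosidase induced by darkness, had 0.0444, 1.06, 1.05 and 0.0380 FPKM in *glct2* and 2.60, 7.10, 4.61 and 4.51 FPKM in wild types (-1.91, adjusted p = 0.00716). *TPS10*, of the trehalose phosphate synthase family, averaged 9.15 ± 0.629 FPKM in *glct2* and 15.3 ± 1.73 FPKM in wild types (-0.68, adjusted p = 0.00916). The asparagine synthetase gene *ASN1*, another marker of carbon shortage, had -0.70 and did not pass. The *glct2* and wild-type libraries did not overlap in any of the 3 genes given first. The calls of *SEN1* and *TPS10* were kept in all 24 alternatives. *DIN2* did not reach the filter of 5 FPKM, so it was not tested in that alternative, and its call was kept in all the others.

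Among carbohydrate genes, *SUS1*, a sucrose synthase, had 19.5, 18.5, 13.8 and 19.1 FPKM in *glct2* and 33.5, 33.7, 35.5 and 35.2 FPKM in wild types (-0.93, adjusted p = 0.0268). It was the only 1 of 30 tested sugar carriers, invertases, sucrose synthases and hexokinases to pass, and it did not without *glct2* replicate 1, 2 or 3 or wild-type replicate 1, 3 or 4 (adjusted p up to 0.0829). The vacuolar carrier genes *TMT1* (-0.25), *TMT2* (0.03) and *ERDL6* (-0.14), the exporters *SWEET11* (-0.40) and *SWEET12* (-0.29) and the hexokinase *HXK1* (-0.07) did not pass. Of 35 starch and sucrose enzymes 5 were lower (14.3%, background 2.77%) and none higher, led by the plastid amylase *AMY3* (37.5 to 45.9 FPKM in *glct2*, 52.7 to 57.0 FPKM in wild types, -0.35, adjusted p = 0.0129). *AMY3* was the only 1 of the 5 kept in all 24 alternatives. The phosphorylase *PHS1* had -0.41 and was lost without *glct2* replicate 1, 2 or 3 or wild-type replicate 1, 2, 3 or 4 (adjusted p up to 0.115). It was also lost with voom, the replicate block or the recovered reads. Starch synthase *SS3* was lost in 4 of the 12 fits without one library and phosphoglucomutase *PGM1* and the debranching enzyme gene *ISA1* in 9 each (adjusted p up to 0.0680, 0.118 and 0.125). *PGM1* and *ISA1* were also lost with voom, the replicate block or the recovered reads. In addition, *PGM1* was lost in the fit of the 2 groups alone. *ISA1* was lost with no filter and after rescaling without the 50 most abundant genes. The count of lower genes was 1 without *glct2* replicate 1 or wild-type replicate 1 or 4, 2 without *glct2* replicate 2 or 3 or wild-type replicate 2, 3 without *glct2* replicate 4, wild-type replicate 3 or overexpressor replicate 1 or 3, and 2 with voom, the replicate block or the recovered reads. Of 14 envelope transporters, the hexose phosphate importer *GPT2* rose, with 27.9, 20.6, 22.8 and 21.6 FPKM in *glct2* and 5.49, 9.00, 5.70 and 1.46 FPKM in wild types, while *pGlcT2* and its relative *pGlcT* fell (57.2 to 76.4 FPKM in *glct2*, 91.3 to 111 FPKM in wild types, -0.52, adjusted p = 0.0114).

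Of 13 senescence genes 3 were lower (23.1%, background 2.77%), with a median of -0.21. The regulators *ORE1* (-0.98) and *NAP* (-1.11) were lower beside *NYC1* (adjusted p = 0.0207 and 0.0340), but *ORE1* was lost without *glct2* replicate 1 or 3 or wild-type replicate 1 or 4 and *NAP* without any single *glct2* or wild-type library (adjusted p up to 0.0631 and 0.0919). *NAP* was also lost with no filter and with the replicate block. *SAG12*, the classical marker, had -0.11. In nitrogen assimilation nitrite reductase *NIR1* (-0.63) and the glutamate synthase *GLU1* (-0.54) passed of 14. *NIR1* was lost without *glct2* replicate 1, 2 or 3 or wild-type replicate 1, 3 or 4 or the overexpressor's replicate 1 or 3 and *GLU1* without *glct2* replicate 1, 2, 3 or 4 or wild-type replicate 1, 3 or 4 or the overexpressor's replicate 1 or 3 (adjusted p up to 0.132 and 0.139). *COR15B*, a cold-regulated gene, passed of 22 (-1.01, adjusted p = 0.0469, lost without *glct2* replicate 1, 2, 3 or 4 or wild-type replicate 2, 3 or 4 or the overexpressor's replicate 1 or 3, adjusted p up to 0.136), and *CER4*, a wax gene, rose (0.81, adjusted p = 0.0367, lost without *glct2* replicate 1, 2 or 4 or wild-type replicate 1, 2 or 4 or the overexpressor's replicate 3, adjusted p up to 0.102). *NIR1*, *GLU1* and *CER4* were also lost in the fit of the 2 groups alone, with no filter and with the replicate block. *GLU1* was lost with voom too, and *COR15B* with no filter and after rescaling without the 50 most abundant genes. None of 25 clock genes, 24 genes of salicylic acid and defence, 15 of phosphate starvation, 6 of heat shock and 6 of flowering passed in the limma fit. An unadjusted p under 0.05 was seen for 6, 5, 2, 0 and 1 of them, and voom called 2, 0, 0, 0 and 0. The nearest were *LHY* (-0.48, adjusted p = 0.0656), *ALD1* (1.13, adjusted p = 0.0850), *SPX3* (-1.30, adjusted p = 0.0915), *HSP70* (0.52, adjusted p = 0.278) and the florigen *FT*, which had 1.22, 0.495, 0.544 and 0.683 FPKM in *glct2* and 2.32, 1.48, 1.44 and 1.78 FPKM in wild types (-0.68, adjusted p = 0.0532). Phosphate genes were high in wild-type replicate 2, where their median stood 0.93 above the wild-type mean. None of 10 reference genes passed in limma (2 with an unadjusted p under 0.05, 1 called by voom), *UBC9* coming nearest (0.24, adjusted p = 0.0568).

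**Figure D5:**
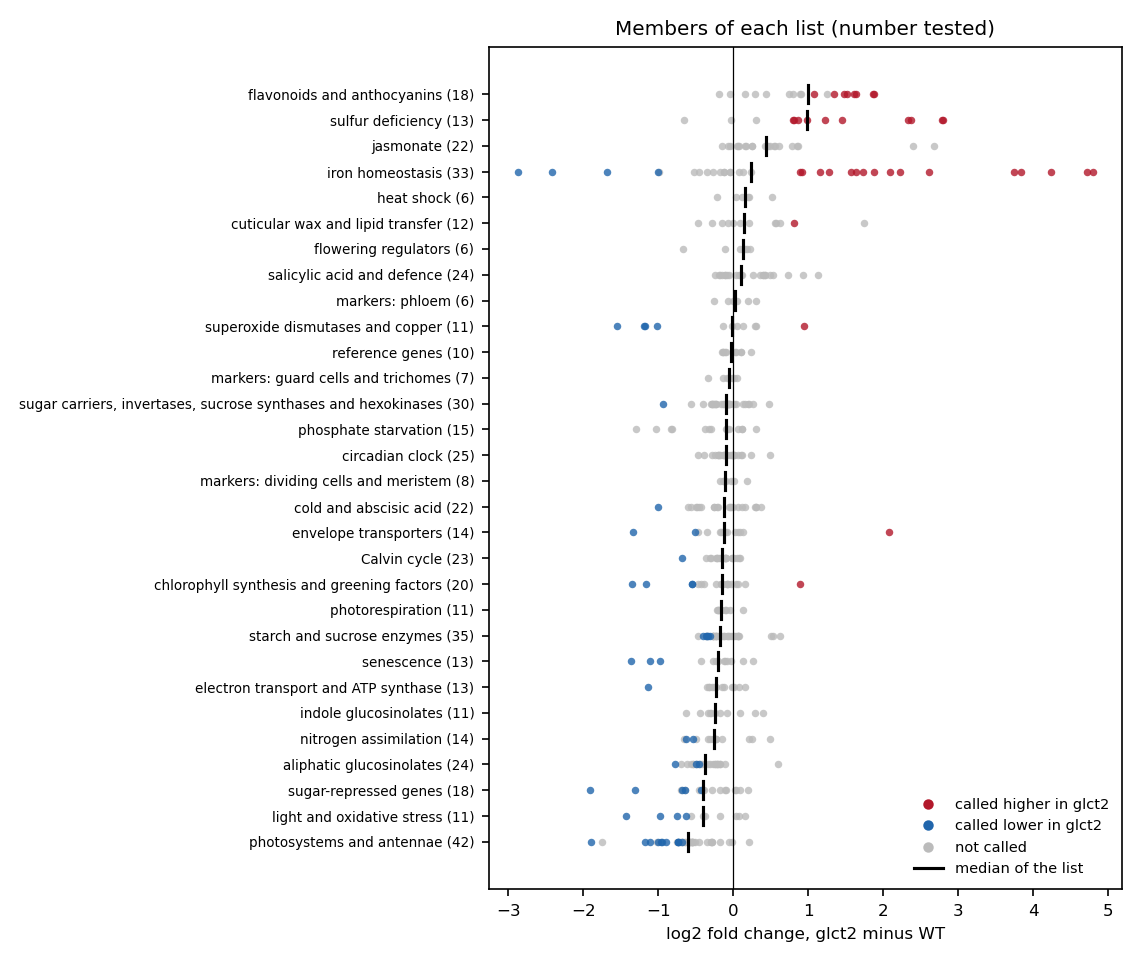
Log2 fold changes, *glct2* minus wild types, for the tested members of each list with 6 or more of them (number in brackets), ordered by the list median (black bar); red and blue points were called higher and lower, grey ones were not called. The iron list spreads from -2.88 to 4.80, and the photosystem list has a median of -0.61, the lowest shown, which under quantile normalization was -0.31 and no longer the lowest (aliphatic glucosinolates -0.41).

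Some of the largest falls belonged to no list. *At3g16670* had 3.47, 3.85, 3.28 and 2.71 FPKM in *glct2* and 32.7, 9.13, 27.6 and 49.9 FPKM in wild types (-2.62, adjusted p = 0.00641). *At3g43670*, described as an amine oxidase, had 7.83, 7.11, 5.08 and 9.46 FPKM in *glct2* and 34.5, 27.6, 30.1 and 32.7 FPKM in wild types (-1.97, adjusted p = 7.15e-05), and the lncRNA *At3g05945* 13.0 to 18.1 FPKM in *glct2* and 45.4 to 56.9 FPKM in wild types (-1.62, adjusted p = 3.22e-05). *RL2* (*At2g21650*), a gene of the MYB-related RADIALIS-like family, had 1.26 to 4.35 FPKM in *glct2* and 5.91 to 19.7 FPKM in wild types (-2.23, adjusted p = 0.00405). *AHP4* of cytokinin signalling (-1.79), the pectin methylesterase *PME17* (-1.63) and *At2g36885* (-1.39) also fell, but *AHP4* was lost without *glct2* replicate 1, 2 or 3 or wild-type replicate 4, *PME17* without *glct2* replicate 1, 2 or 4 or wild-type replicate 1, 2, 3 or 4 or the overexpressor's replicate 3 and *At2g36885* without *glct2* replicate 1, 2 or 3 or wild-type replicate 1, 3 or 4 (adjusted p up to 0.0845, 0.0975 and 0.0962). *At1g67865* and *DGAT3*, a diacylglycerol acyltransferase, were among the 5 largest rises of mean FPKM of called genes without overlap (492 to 678 and 492 to 578 FPKM in *glct2*, 323 to 451 and 285 to 412 FPKM in wild types, 0.62 and 0.64), and were lost without *glct2* replicate 1 or 3 or wild-type replicate 1, 3 or 4 and *glct2* replicate 1 or 3 or wild-type replicate 1 or 4 in turn (adjusted p up to 0.0900 and 0.0824). Both were also lost with the replicate block, and *PME17* with voom, with no filter and with a pseudocount of 5.

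Genes of the cytosolic ribosome had mostly small positive values. Of 185 tested genes described as 40S or 60S ribosomal proteins 180 had positive values, 23 were higher (12.4%, background 2.05%) and none lower, and the median was 0.29. The range of the values was -0.08 to 0.57, and their summed level was 23168 to 24576 FPKM in *glct2* and 17124 to 21823 FPKM in wild types. With the reads rescaled to the recovered reads 106 of them were higher, while the genes called higher over all genes tested went from 368 to 1291. Over 35 nuclear genes described as 30S or 50S ribosomal proteins, those described as mitochondrial left out, the median was 0.00. Small nucleolar RNAs had a median of 0.26 over 97 tested genes, with 6 higher (6.19%, background 2.05%) and 1 lower. Of 71 plastid genes 1 was higher, and the median of 22 mitochondrial genes was 0.08. Plastid transcripts were highest in *glct2* replicate 4, whose median lay 0.66 above the wild-type mean. Over the nuclear chromosomes the medians ran from -0.0048 to 0.0052. Of 86 Pfam domain families with at least 20 tested genes, none had more than 16.7% of its genes called, and their medians ran from -0.20 (ion transport domain) to 0.22 (auxin-inducible proteins).

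By the results section of the paper, the overexpressor was made in the *glct2* line with a transgene for *pGlcT2*. The methods of the paper name the knock-out background for the complemented line only. Whether the overexpressor carries the insertion was not tested here. The overexpressor libraries were in the same fit. Over all genes tested, 15.5% were called higher and 18.1% lower in the overexpressor than in *glct2*. Of the 368 genes called higher in *glct2* than in wild types, 23.9% were higher and 13.9% lower in the overexpressor than in *glct2*, and of the 497 called lower, 28.2% were higher and 26% lower. Among the 28 named genes higher in *glct2*, 12 were higher still in the overexpressor, 4 were lower there than in *glct2* and 12 did not pass. Among the 46 named genes lower in *glct2*, 9 were higher and 18 lower in the overexpressor than in *glct2*, and 19 did not pass. Both comparisons share the *glct2* libraries. *BHLH38* averaged 84.5 ± 23.7 FPKM in the overexpressor, 48.8 ± 9.75 FPKM in *glct2* and 0.775 ± 0.206 FPKM in wild types (overexpressor minus *glct2* 0.75, adjusted p = 0.0152), and *SDI1* 261 ± 98.6 FPKM in the overexpressor, 88.7 ± 18.6 FPKM in *glct2* and 15.2 ± 13.8 FPKM in wild types (1.47, adjusted p = 0.0306). For *FER1* the means were 22.4 ± 7.20 FPKM in the overexpressor, 26.8 ± 7.53 FPKM in *glct2* and 146 ± 26.4 FPKM in wild types, and the difference between the lines did not pass (-0.27, adjusted p = 0.383). *At3g05945* (1.21, adjusted p = 8.13e-05), *AMY3* (0.84, adjusted p = 8.67e-06) and *DIN2* (2.49, adjusted p = 1.82e-04) were lower in *glct2* than in wild types and higher in the overexpressor than in *glct2*, with means of 38.3, 77.8 and 7.50 FPKM in the overexpressor and 50.9, 54.9 and 4.71 FPKM in wild types. *At1g64795* was listed at 0 in all 4 overexpressor libraries.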

How the data were processed

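RNA of *glct2*, wild-type and overexpressor leaves was sequenced from directional libraries, with 4 biological replicates a genotype according to the study's methods. Tools in the submitters' processing notes are HISAT2 2.0.5, fastp and StringTie 1.3.3, and the build is TAIR10. The counting program, its strand setting and the annotation version are not given in the sources used here, so reads of overlapping or near-identical genes may be shared. The authors deposited FPKM values per gene and library. They are whole reads divided by gene length and by a scaled library size: 100% of the values gave whole reads (tolerance 0.01). The authors' 3 columns of group means equal the means of the libraries and were not used.

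Genes with at least 1 FPKM in at least 4 of the 8 libraries were tested on log2(FPKM + 1) with limma 3.58.1 (R 4.3.3, trended variance, genotype means of all 12 libraries). Fold changes on this scale understate those of low genes. P-values were adjusted by Benjamini-Hochberg with a threshold of 0.05. They set the difference between 2 genotype means against the spread among replicates, estimated over all 12 libraries with the overexpressor included. Tables were made with pandas 2.3.3 and figures with matplotlib 3.10.9.

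Named genes were *pGlcT2*, the 15 largest rises and falls in log2 fold change among called genes without overlap and with a group mean of at least 5 FPKM, the 5 largest rises and falls of mean FPKM among called genes without overlap, and in each list up to 3 called members with the lowest p or, with none, the tested member with the lowest p. All other genes in the text, list members without a call included, were chosen after their values were seen. The members and the 32 lists (572 genes) were chosen with earlier results of these data known. Ratios of genes near 0 have exact counting intervals, which cover counting error only. Depth was 18471068 to 24276381 reads per library.

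On simulated data limma called 15 of 67 genes changed by 0.5 on the log2 scale, 63 of 67 changed by 1 and 65 of 65 changed by 2, and 8 unchanged genes, of 17737 tested. Each gene was drawn independently with the same fixed spread between replicates, and without deviations shared across a library. Only genes above a minimum of expected reads were changed. These counts therefore do not give the error rate in the real libraries. Alternatives were other pseudocounts, filters, scalings and models, limma voom on the recovered reads, a replicate block and the removal of each library.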

Additional observations from a re-analysis of the deposited data

Results flagged for a closer look

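Of 186 sets of 4 libraries examined (named genes and library measures in each genotype), 7 held 1 library that lay far from the other 3 by Dixon's test at the 95% level, a test that flags about 5% of sets by chance. *Glct2* replicate 3 was the high library for *At1g64795*, with 91.08 FPKM against 63.49 to 65.12 FPKM in its other libraries, for *BHLH100*, with 76.66 FPKM against 47.14 to 48.78 FPKM, and for *DGAT3*, with 577.7 FPKM against 491.9 to 501.3 FPKM. *Glct2* replicate 4 was the high library for *FER1*, with 38.07 FPKM against 22.51 to 24.04 FPKM. This library also held 0.08201% of its reads on the plastid chromosome, against 0.02134 to 0.03066% in the other *glct2* libraries, and 0.3836% on ribosomal RNA genes, against 0.1225 to 0.1506%. The part of these reads in the value of *FER1* was not tested. In wild types replicate 4 stood apart for *CYP83A1*, with 282.1 FPKM against 235.6 to 242.9 FPKM.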

How the results depend on the processing

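Of the 74 called genes named by the rule, 44 were called in every alternative in which they were tested. Of these 44, *DIN2* and *At1g07367* were not tested with the filter of 5 FPKM, and the rest were tested in all 24. Calls of 29 genes were lost in at least 1 fit without a library and of 16 in at least 1 of the 12 other settings, and none changed sign. Leaving out 1 library gave 220 to 1158 calls, 100 to 517 higher and 120 to 641 lower, the most without overexpressor replicate 4. The totals were 297, 386, 284 and 502 without *glct2* replicates 1 to 4, 308, 560 and 220 without wild-type replicates 1, 3 and 4, and 560 and 566 without overexpressor replicates 1 and 3. The calls were 1851 with library quality weights (823 higher, 1028 lower), 1484 with limma voom (1230 and 254), 1535 after rescaling to the recovered reads (1291 and 244) and 125 with a log2 fold change of at least 1 (72 and 53). With the replicate block they were 506 (224 higher, 282 lower). Same-numbered *glct2* and wild-type libraries deviated together with r of 0.29, -0.30, -0.25 and 0.33. *Glct2* replicates 1 and 4 had their own number as the best wild-type partner, and replicates 2 and 3 did not. Whether the numbers pair the samples cannot be told from these values, and the main fit treated the libraries as unpaired. The other settings gave 636 to 970 calls. *GGT1*, not called, changed sign under quantile normalization (0.0359). The median of the sugar carriers (-0.09), the clock genes (-0.10), the phosphate genes (-0.09) and the superoxide dismutase and copper list (-0.02) turned to at least 0.00 with the recovered reads. The cause of these shifts was not tested. One read in 1 kilobase was worth about 0.05 FPKM, so levels near 0 rest on a few reads.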
